A study of Mus musculus with 10 samples.

Results

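The genes described here are 10 components of the Notch pathway in mouse retina: the receptors Notch1, Notch2 and Notch3, the ligands Dll1, Dll4 and Jag1, the nuclear mediator Rbpj, and the target genes Hes1, Hes5 and Hey1. They were chosen by symbol from the 19999 genes of the deposited count table. All 10 were found and all 10 passed the filter on low counts, which left 16852 genes. Retinal RNA came from mice of the Balb/c strain, an albino strain used for light damage because its eyes lack pigment. The 5 libraries of the light-induced damage model are named LD-vehicle and the 5 control libraries CTRL-vehicle, so the word vehicle is shared by both groups. The labels give no light dose, time after exposure, age, sex or transgene, and they do not say whether each library came from a separate animal. The p-values below therefore measure the spread between these libraries, part of which may be technical.

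Notch is a receptor that is cut when a Delta or Jagged ligand on a neighbouring cell pulls on it. Its intracellular part then enters the nucleus, joins Rbpj and a Mastermind coactivator on DNA, and turns on Hes and Hey genes, whose products repress proneural genes. In the developing retina this pathway holds progenitors back from becoming neurons and favours Müller glia, the radial glia that span the tissue. In blood vessels Dll4, Jag1 and Notch1 shape sprouting, and Notch3 is known as the receptor of pericytes and vascular smooth muscle. Rbpj is known to bind the word GTGGGAA.

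The control region of Hes5, the target gene with the higher fold change here, and that of Jag1, the ligand that fell, are shown first because these genes moved in opposite directions. Both are the 250 bases before the RefSeq transcription start in build GRCm38.p6, read on the strand of the gene. Hes5 lies at chr4:154960673-154960922 on the plus strand and Jag1 at chr2:137116521-137116770 on the minus strand. Capitals mark GTGGGAA or, read from the other strand, TTCCCAC.
Hes5: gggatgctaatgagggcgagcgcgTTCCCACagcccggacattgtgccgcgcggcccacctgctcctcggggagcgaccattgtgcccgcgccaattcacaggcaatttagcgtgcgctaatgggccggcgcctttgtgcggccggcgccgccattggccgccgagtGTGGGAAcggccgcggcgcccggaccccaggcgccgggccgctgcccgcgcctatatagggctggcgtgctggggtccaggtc
Jag1: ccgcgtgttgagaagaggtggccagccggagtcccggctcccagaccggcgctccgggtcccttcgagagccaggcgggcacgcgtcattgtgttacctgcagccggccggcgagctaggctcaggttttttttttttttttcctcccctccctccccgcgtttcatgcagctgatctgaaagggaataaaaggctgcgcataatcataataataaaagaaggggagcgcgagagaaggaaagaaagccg
In Hes5 the word TTCCCAC began 226 bases before the start and GTGGGAA began 83 bases before it, 1 word on each strand. RefSeq promoters were matched for 8 of the 10 genes, 10 promoters in all, and no other one of these held the word. Hes1 and Hey1 were not searched. Of 32851 mouse promoters searched the same way on both strands, 5.42% held it at least once and 0.161% at least 2 times. A match of letters is a description and not a binding site.

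In light-damaged retina the target genes Hes1 and Hes5 rose and the ligand Jag1 fell, and the other 7 genes did not pass the test. Hes1 was 1.36-fold and Hes5 1.63-fold as high in light damage as in control, and Jag1 was 0.755-fold as high. For each of these 3 genes the lowest library of the higher group stood above the highest library of the other. Of all genes tested 5.32% were called higher and 7.85% lower, at a Benjamini-Hochberg adjusted p under 0.05 by the quasi-likelihood test of edgeR. In either direction 3 of the 10 genes passed, against 13.2% of all genes. Groups did not overlap for 3 of the 10 genes and for 9.79% of all genes. An unadjusted p under 0.05 was reached by 5 of the 10, against 30.3% of all genes. The median log2 fold change was 0.04 over the 10 genes and 0.0016 over all genes. In bulk tissue a change in the number of cells of a type and a change in RNA per cell cannot be told apart.

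The libraries held between 17900227 and 20337329 counts in light damage and between 14652535 and 20699236 in control. Light damage replicates 1 and 2 stood apart, with 17174 and 20414 counts of Xist, against at most 9 in any other library, and with lens scores of 6.44 and 5.56, against at most 0.85 elsewhere. A score is the mean, over a list of genes, of log2 CPM (counts scaled to a common library size) centred over all libraries. Without these libraries 135 genes of the whole table were called higher and 268 lower, against 896 and 1323 with all 10. Both high-Xist libraries are light damage libraries, and the labels give no sex. A difference in sex or lens content therefore cannot be told apart from light damage in these libraries. Rod genes, which mark the tissue as retina, summed to between 61510 and 86460 CPM in light damage and between 66170 and 107900 CPM in control.

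**Figure D1:**
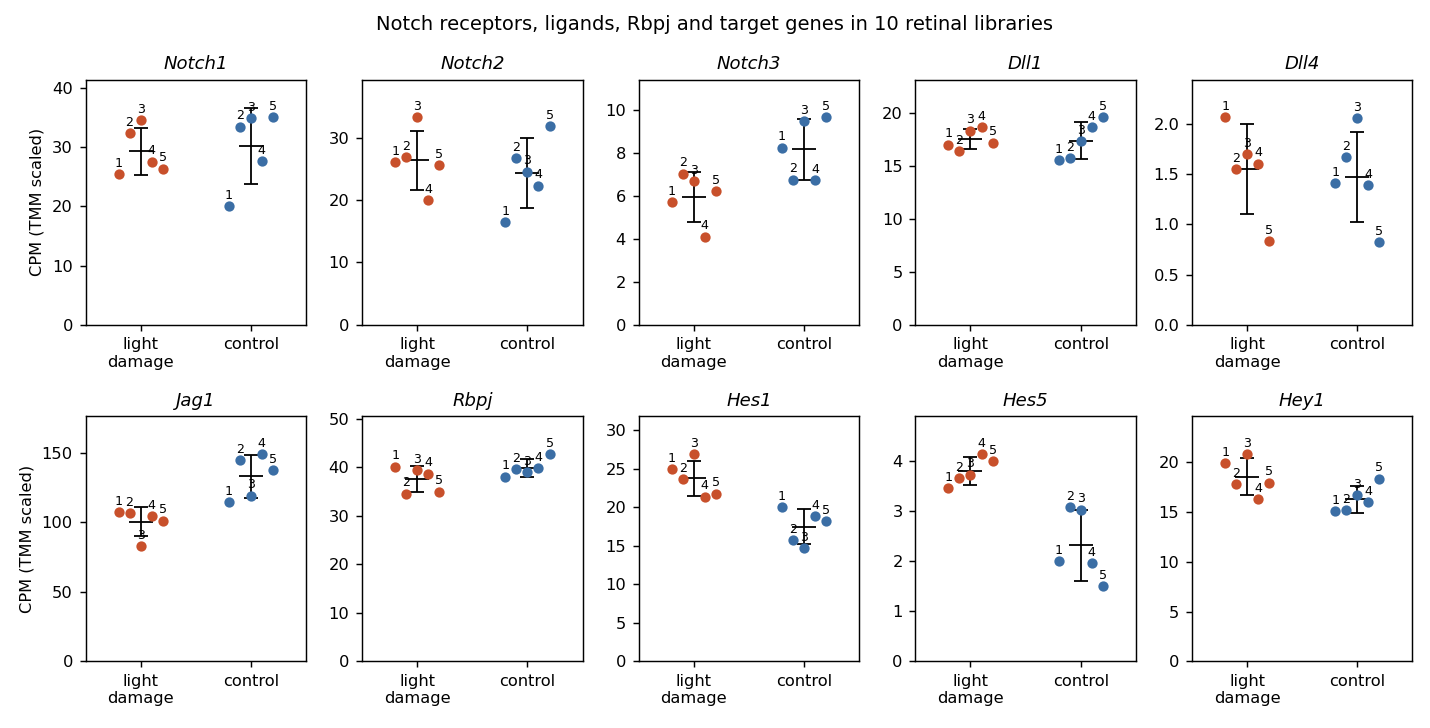
TMM-scaled CPM of each of the 10 genes (vertical axis, from 0) in light damage libraries (orange, left) and control libraries (blue, right). Points are libraries with their replicate number, and bars are the mean and SD of 5 libraries. The points of Hes1, Hes5 and Jag1 do not overlap between the groups.

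Hes1 (ENSMUSG00000022528), a basic helix-loop-helix repressor and the broadest Notch target, had 24.9, 23.7, 26.9, 21.4 and 21.8 CPM in light damage replicates 1 to 5, against 20.0, 15.7, 14.7, 18.8 and 18.2 CPM in control replicates 1 to 5. Every light damage library was higher than every control library, with light damage replicate 3 at the top and control replicate 3 at the bottom. Mean levels were 23.7 ± 2.30 CPM in light-damaged retina and 17.5 ± 2.22 CPM in control retina (SD, n = 5 each). The change was 0.44 in log2 units (SE 0.09, 95% interval 0.24 to 0.64, edgeR adjusted p = 0.00823). Leaving out any single library kept the call, the edgeR adjusted p lying between 0.0042 and 0.0285. Without both high-Xist libraries it was 0.42 with an adjusted p of 0.0738 in edgeR.

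Hes5 (ENSMUSG00000048001), a related repressor that is needed together with Hes1 to hold back neuronal differentiation and that promotes Müller glia in mouse, was far less abundant. It had 3.47, 3.67, 3.74, 4.15 and 4.01 CPM in light damage replicates 1 to 5, against 2.01, 3.09, 3.04, 1.97 and 1.51 CPM in control replicates 1 to 5. These values rest on 62 to 79 counts in a light damage library and 22 to 56 in a control library. Light damage libraries lay close together, with a coefficient of variation of 7.18%, while controls varied by 30.3% and fell into higher replicates 2 and 3 and lower replicates 1, 4 and 5. Mean levels were 3.81 ± 0.273 CPM in light-damaged retina and 2.32 ± 0.704 CPM in control retina (SD, n = 5 each), or 0.71 on the log2 scale (SE 0.19, 95% interval 0.30 to 1.12, edgeR adjusted p = 0.0253). The call was close to the threshold. It was lost without light damage replicate 3 (0.053) or 4 (0.0534) and without control replicate 4 (0.0517) or 5 (0.0589), and without both high-Xist libraries (0.0899), each value an adjusted p of edgeR. Its log2 fold change stayed between 0.59 and 0.83 over the 10 fits that left out a library and was 0.77 without both high-Xist libraries. A transcript annotated on the opposite strand, Gm20421, shares 433 exon bases with Hes5, and whether the counting used strand is not stated in the labels. Gm20421 had 9 to 25 counts in light damage and 7 to 25 in control. Opposite-strand transcripts also overlap exons of Notch1 (0610009E02Rik, 1068 bases, 15 to 33 counts in light damage and 18 to 37 in control), Notch3 (Gm17276, 488 bases, 16 to 32 counts in light damage and 15 to 34 in control) and Dll4 (Gm14207, 214 bases, at most 3 counts in a library). On the same strand, Gm42820 shares 541 exon bases with Notch2 and had at most 3 counts in a library. Opposite-strand transcripts without counts in the deposited data also share exon bases with Dll1 (A930024N18Rik, 867 bases) and Notch1 (Gm13568, 414 bases). Reads of these pairs cannot be told apart without strand, or at all on the same strand.

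Hey1 (ENSMUSG00000040289), a Hes-related repressor known from endothelium as well as neural tissue, had 20.0, 17.8, 20.9, 16.3 and 18.0 CPM in light damage replicates 1 to 5, against 15.1, 15.2, 16.7, 16.1 and 18.4 CPM in control replicates 1 to 5. The groups overlapped, and light damage replicate 4 lay below control replicates 3 and 5. The change was 0.19 in log2 units (SE 0.09, 95% interval 0.01 to 0.38, edgeR adjusted p = 0.148), so Hey1 did not pass the test. The other Hes, Hey and feedback genes measured were likewise not called. Hes6, which encodes an inhibitor of Hes1 activity, had a mean of 23.0 ± 1.22 CPM in light-damaged retina and 20.3 ± 0.945 CPM in control retina (SD, n = 5 each). Nrarp, a feedback inhibitor that acts on the Notch complex, had a mean of 2.84 ± 0.485 CPM in light-damaged retina and 2.26 ± 0.435 CPM in control retina, and both gave positive log2 fold changes, 0.18 and 0.33, with adjusted p of 0.0863 and 0.257 in edgeR. All 4 tested genes of this group, with Hey2 and Heyl, had positive fold changes with a median of 0.21 on the log2 scale, and 0 of 4 passed by edgeR or DESeq2, while Hes6 alone had an unadjusted p under 0.05. Hes3 and Hes7 had too few counts to be tested.

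Jag1 (ENSMUSG00000027276), a Jagged ligand and the most abundant of the 10 genes, had 107.6, 106.5, 82.7, 104.4 and 101.3 CPM in light damage replicates 1 to 5, against 114.6, 145, 119, 149 and 137 CPM in control replicates 1 to 5. All light damage libraries lay below all controls, and replicate 3 was lowest. Mean levels were 100.5 ± 10.2 CPM in light-damaged retina and 133 ± 15.5 CPM in control retina (SD, n = 5 each). The change was -0.41 in log2 units (SE 0.09, 95% interval -0.59 to -0.22, edgeR adjusted p = 0.00818). Jag1 was called lower whichever library was left out (highest adjusted p 0.028), and it was the single gene of the 10 still called without both high-Xist libraries, at -0.47 and an adjusted p of 0.0363, all by edgeR. With the lens score as a covariate none of the 10 genes was called by edgeR, and over all genes 1 was called higher and 7 lower. In that fit Jag1 stood at -0.46 (adjusted p = 0.207), Hes1 at 0.31 (0.367) and Hes5 at 0.97 (0.197), on the log2 scale by edgeR. The lens score ran from -1.1 to 6.44 in light damage and from -3.6 to -0.94 in control. Because the score differed between the groups, this fit cannot tell lens content and light damage apart.

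The Delta ligands gave no such difference. Dll1 (ENSMUSG00000014773), the ligand of newborn neurons in the developing retina, had 17.0, 16.4, 18.3, 18.7 and 17.2 CPM in light damage replicates 1 to 5, against 15.5, 15.8, 17.3, 18.6 and 19.6 CPM in control replicates 1 to 5. Its light damage values lay inside the range of the controls, and the log2 fold change of 0.01 had a 95% interval of -0.16 to 0.19. Dll4 (ENSMUSG00000027314), the ligand of sprouting endothelial cells, was the least abundant of the 10 genes, with 2.07, 1.55, 1.70, 1.61 and 0.835 CPM in light damage replicates 1 to 5 and 1.41, 1.67, 2.06, 1.395 and 0.822 CPM in control replicates 1 to 5. With 12 to 38 counts in a library its 95% interval was wide, -0.50 to 0.63 on the log2 scale. The related ligands outside the 10 were Jag2, Dll3 and Dner. Jag2 had a mean of 49.8 ± 4.54 CPM in light-damaged retina and 57.1 ± 8.21 CPM in control retina (SD, n = 5 each), or -0.20 on the log2 scale (edgeR adjusted p = 0.166). Dner, a transmembrane Notch ligand of neurons, rose to 127 ± 5.47 CPM in light damage, against 109 ± 8.75 CPM in control (SD, n = 5 each), or 0.22 on the log2 scale (SE 0.06, edgeR adjusted p = 0.0256).

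Receptor levels did not pass the test. Notch1 (ENSMUSG00000026923), the receptor that keeps retinal progenitors undifferentiated, had 25.5, 32.4, 34.6, 27.6 and 26.4 CPM in light damage replicates 1 to 5, against 20.1, 33.5, 34.9, 27.6 and 35.1 CPM in control replicates 1 to 5. Notch2 (ENSMUSG00000027878) had 26.1, 26.9, 33.3, 19.9 and 25.7 CPM in light damage replicates 1 to 5, against 16.5, 26.7, 24.6, 22.3 and 31.9 CPM in control replicates 1 to 5. For both receptors control replicate 1 was the lowest of all 10 libraries and the groups overlapped almost entirely. The log2 fold changes were -0.04 for Notch1 (95% interval -0.37 to 0.28) and 0.12 for Notch2 (95% interval -0.26 to 0.50). Notch1 and Notch2 varied together: the correlation of their deviations from the group means was 0.84 over the 10 libraries.

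Notch3 (ENSMUSG00000038146) had 5.71, 7.03, 6.67, 4.10 and 6.23 CPM in light damage replicates 1 to 5, against 8.25, 6.75, 9.49, 6.72 and 9.66 CPM in control replicates 1 to 5. Light damage replicate 2 lay above control replicates 2 and 4, so the groups overlapped. Mean levels were 5.95 ± 1.15 CPM in light-damaged retina and 8.18 ± 1.42 CPM in control retina (SD, n = 5 each), or -0.46 on the log2 scale (SE 0.16, 95% interval -0.78 to -0.13, edgeR adjusted p = 0.0609). DESeq2 called it, with an adjusted p of 0.0381. Of 9 tested markers of pericytes and smooth muscle 0 passed by edgeR and 0 had an unadjusted p under 0.05. Their summed level was 83.6 to 130 CPM in light damage and 96.5 to 122 CPM in control. DESeq2 also called 0 of these 9. Of 12 endothelial markers 0 passed by edgeR and 1 had an unadjusted p under 0.05, against 30.3% of all genes. DESeq2 called 1, Cldn5, a tight junction gene, higher. Notch4, the endothelial receptor, also named after its values were seen, had a mean of 4.53 ± 0.447 CPM in light-damaged retina and 4.94 ± 1.54 CPM in control retina (SD, n = 5 each).

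Rbpj (ENSMUSG00000039191), the DNA-binding partner of all Notch receptors, was among the steadiest of the 10 genes. It had 40.1, 34.5, 39.5, 38.7 and 35.0 CPM in light damage replicates 1 to 5, against 38.1, 39.5, 39.0, 39.8 and 42.8 CPM in control replicates 1 to 5. Its coefficient of variation was 6.95% in light damage and 4.43% in control, and the log2 fold change of -0.08 had a 95% interval of -0.22 to 0.05.

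**Figure D2:**
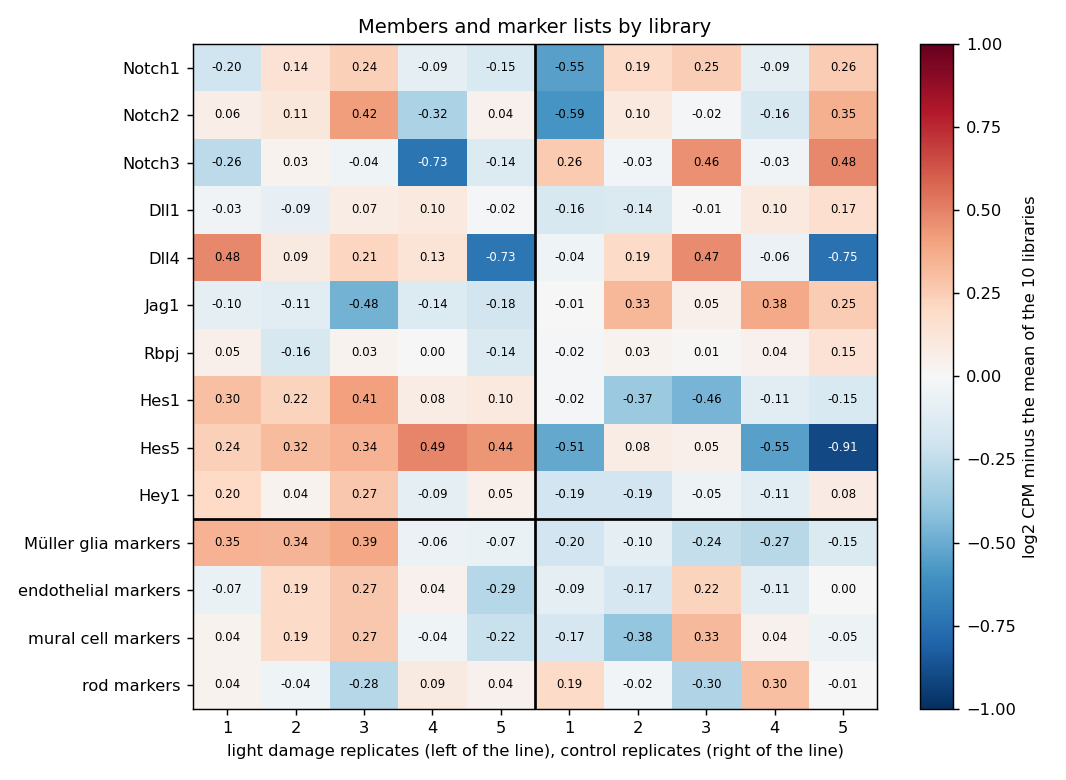
Log2 CPM of each gene minus its mean over the 10 libraries (colour and printed value) for light damage replicates 1 to 5 and control replicates 1 to 5, with scores of 4 marker lists in the lower rows. Hes1 and Hes5 are positive in all light damage libraries, but the Hes5 values are highest in replicates 4 and 5, where the Hes1 values are lowest.

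Hes1 and Hes5 rose together between the groups but not library by library. The correlation of their deviations from the group means was -0.73 over 10 libraries, -0.74 within light damage and -0.81 within control (5 libraries each), over libraries with 22 to 79 counts of Hes5. Hey1 followed Hes1 within light damage, with a correlation of 0.92, and not within control, where it was -0.07. Of the 10126 genes that averaged 10 CPM or more, those most like Hes1 over the 10 libraries included Ak1, an adenylate kinase, and Msrb1, a methionine sulfoxide reductase, with Pearson correlations of 0.97 and 0.96. Those most like Jag1 were Atp7b, a copper transporter, the kinase gene Stk35 and the taurine transporter gene Slc6a6, each at 0.98. Hey1 was most like Plekho2 (0.95), Lmna, which encodes nuclear lamins (0.90), and Tef, a PAR-bZIP factor (0.89). Notch1 was most like Wdfy2 (0.93), Fnbp1l (0.93) and Lactbl1 (0.91), and Notch2 most like Arhgef10 (0.93), Tspan9 (0.92) and Fndc3b (0.91). The nearest genes to Dll1 were Taf6 (0.90), Efnb3 (0.86) and Dnpep (0.85), and those to Rbpj were Trp53bp2 (0.90), Fzd4 (0.90) and Slc52a2 (0.85). The points of each correlation share library and depth.

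**Figure D3:**
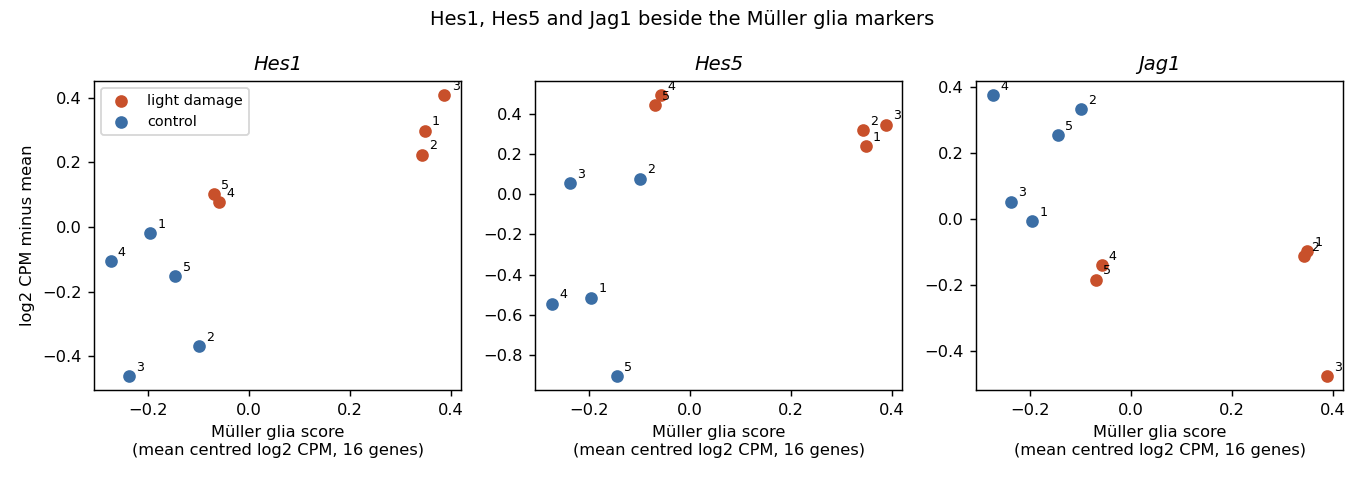
Centred log2 CPM of Hes1, Hes5 and Jag1 (vertical axes) against the Müller glia score, the mean centred log2 CPM of 16 marker genes (horizontal axes), in light damage libraries (orange) and control libraries (blue) with replicate numbers. Light damage replicates 1, 2 and 3 score between 0.34 and 0.39, while replicates 4 and 5 lie close to the controls and still have the highest Hes5 values.

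The Müller glia score and Hes1 correlated at 0.81 over the 10 libraries of both groups. Hey1, which was not called, gave 0.76 with that score. For Hes1 with endothelial markers and with markers of pericytes and smooth muscle the correlations were 0.17 and 0.24. These values mix the difference between groups with the spread within them. Among controls, replicate 2 had the highest Müller glia score (-0.10), but its centred Hes1 value (-0.37) lay below that of replicate 1 (-0.02). Of 16 Müller glia markers, all outside the 10 genes, 6 rose and 0 fell by edgeR, beside 5.32% and 7.85% of all genes. Rlbp1, the retinaldehyde binding protein, and Dkk3, a secreted Wnt modulator, were among those that rose. An unadjusted p under 0.05 was reached by 8 of the 16, against 30.3% of all genes, and 0 fold changes were negative. The list had been compiled with earlier results of these data known. Their summed level was 5932 to 8292 CPM in light damage and 4619 to 5931 CPM in control, and no marker was at 0. Light damage replicates 1 to 5 scored 0.35, 0.34, 0.39, -0.06 and -0.07, and controls scored -0.27 to -0.10. Relative to that score, Hes1 stood at 0.03 ± 0.12 in light damage and -0.03 ± 0.21 in control (SD, n = 5 each, log2 scale), and the groups overlapped. Hes5 relative to the same score stood at 0.18 ± 0.32 in light damage and -0.18 ± 0.42 in control, and Jag1 at -0.39 ± 0.32 in light damage and 0.39 ± 0.17 in control (SD, n = 5 each), where Jag1 had no overlap between the groups. Of 7 microglial markers 7 had positive log2 fold changes, with a median of 0.50, beside 8484 of 16852 over all genes. An unadjusted p under 0.05 was reached by 5 of the 7, against 30.3% of all genes. By edgeR 1 rose, beside 5.32% of all genes: Csf1r, the receptor of a macrophage growth factor. The microglial sum was 66.5 to 121.5 CPM in light damage and 51.8 to 67.7 CPM in control, and the microglial score, like Hes1, was highest in light damage replicate 3. The Müller glia, astrocyte, endothelial, bipolar and amacrine scores were also highest in that library, and its rod sum was the lowest, at 61510 CPM. Of 8 bipolar markers 8 had positive fold changes and 4 rose by edgeR, with a summed level of 1236 to 1444 CPM in light damage and 1057 to 1334 CPM in control. Fold changes were also positive for 5 of 5 retinal pigment epithelium markers, 9 of 9 lens markers and 3 of 11 rod markers. Of these, 0, 3 and 1 rose by edgeR, beside 5.32% of all genes. The part of these cell type signals in the changes of the 10 genes was not tested.

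The levels of the 10 genes can be set in order only per transcript length, and the following values are CPM per kilobase of the longest annotated transcript, as mean ± SD over all 10 libraries. Jag1 came first at 20.8 ± 3.77 and Hes1 next at 14.04 ± 2.67. Their ranges overlapped, with Hes1 above Jag1 in 1 library. Hey1 at 7.19 ± 0.798 and Rbpj at 7.05 ± 0.441 did not differ beyond their spread, Rbpj being above Hey1 in 6 of 10 libraries. Dll1 followed at 4.87 ± 0.375 and Notch1 at 3.14 ± 0.535, without overlap between these and the genes above them. Notch2 at 2.42 ± 0.480 and Hes5 at 2.41 ± 0.731 could not be separated, and the range of Notch2 also overlapped that of Notch1. Notch3 at 0.881 ± 0.211 and Dll4 at 0.404 ± 0.114 were lowest. The range of Notch3 overlapped that of Hes5, with Notch3 above Hes5 in 1 library, control replicate 5. The ranges of Notch3 and Dll4 overlapped as well, although Dll4 was below Notch3 in every library.

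**Figure D4:**
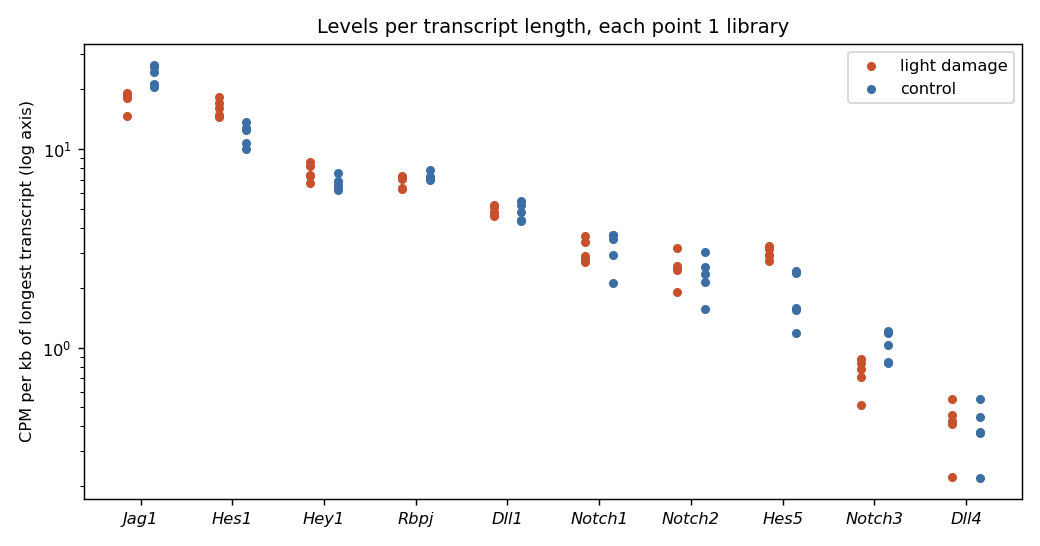
CPM per kilobase of the longest annotated transcript (log axis) for the 10 genes in order of their mean, with each point 1 library, light damage orange and control blue. Jag1 and Hes1 are the highest and Dll4 the lowest, at a mean of 0.404.

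Of 56 other tested pathway genes 3 rose and 6 fell by the edgeR test, beside 5.32% and 7.85% of all genes, and their median log2 fold change was -0.01. The falls lay in nuclear cofactors and Deltex ligases. Spen, a corepressor that binds Rbpj when Notch is off, had 94.7, 98.3, 88.8, 83.4 and 93.4 CPM in light damage replicates 1 to 5, against 113, 144, 134, 109 and 144 CPM in control replicates 1 to 5. No light damage library reached a control, and the change was -0.49 in log2 units (SE 0.08, edgeR adjusted p = 0.00236). Spen is also the 1 gene of the 56 that was called lower without both high-Xist libraries. Of the other 10 corepressor genes 0 passed by edgeR and 4 had an unadjusted p under 0.05, against 30.3% of all genes. DESeq2 called L3mbtl3 higher and Tle2 lower. L3mbtl3, a chromatin reader that binds Rbpj, had a mean of 11.4 ± 1.25 CPM in light-damaged retina and 9.13 ± 0.862 CPM in control retina (SD, n = 5 each, adjusted p = 0.0602 by edgeR).

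Of 7 coactivator genes 3 fell by edgeR, beside 7.85% of all genes. Ep300 and Crebbp encode acetyltransferases that the Notch complex recruits, and Maml1 is a Mastermind protein that bridges Notch and these enzymes. Ep300 had a mean of 126 ± 4.60 CPM in light-damaged retina and 161 ± 20.1 CPM in control retina (SD, n = 5 each), or -0.35 on the log2 scale (SE 0.08, edgeR adjusted p = 0.0081). Crebbp fell by 0.29 and Maml1 by 0.26 on the log2 scale. Its paralog Maml2 did not pass, at 0.31 on the log2 scale (edgeR adjusted p = 0.097). Of 8 genes of receptor trafficking and turnover 2 fell by edgeR, beside 7.85% of all genes. These were the Deltex ubiquitin ligase genes Dtx2, by 0.43, and Dtx3, by 0.28 on the log2 scale. For both the groups overlapped. Fbxw7, the ubiquitin ligase subunit that marks the intracellular part of Notch for breakdown, had a mean of 73.1 ± 4.67 CPM in light-damaged retina and 64.2 ± 5.66 CPM in control retina (SD, n = 5 each, adjusted p = 0.0758 by edgeR).

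The remaining rises were Mfng and Neurod4. Mfng, a Fringe glycosyltransferase that changes which ligands a Notch receptor answers to, had a mean of 10.4 ± 0.719 CPM in light-damaged retina and 8.17 ± 0.859 CPM in control retina (SD, n = 5 each), or 0.35 on the log2 scale (SE 0.11, edgeR adjusted p = 0.0375), without overlap. Pofut1, which adds the fucose that Fringe extends, gave -0.17 on the log2 scale and did not pass (adjusted p = 0.136 by edgeR). Neurod4, a proneural factor of amacrine and bipolar cells, had a mean of 171 ± 13.2 CPM in light-damaged retina and 138 ± 17.5 CPM in control retina (SD, n = 5 each), or 0.31 on the log2 scale (SE 0.08, edgeR adjusted p = 0.0252), also without overlap. By edgeR 4 of 8 bipolar and 2 of 7 amacrine markers rose and 0 fell, beside 5.32% and 7.85% of all genes. The part of these markers in the Neurod4 difference was not tested. Neurog2 gave a log2 fold change of -0.17 with a 95% interval of -0.50 to 0.17. Of the 9 genes of receptor cleavage, the proteases Adam10 and Adam17 and the subunits of gamma-secretase, 0 passed by edgeR or DESeq2 and 0 had an unadjusted p under 0.05. Adam17 gave -0.16 and Psen2 0.12 on the log2 scale, the lowest p of that role. Of 4 genes of ligand endocytosis 0 passed by edgeR or DESeq2 and 1 had an unadjusted p under 0.05, against 30.3% of all genes. Neurl1a and the ubiquitin ligase gene Mib1 gave 0.19 and -0.12 on the log2 scale.

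**Figure D5:**
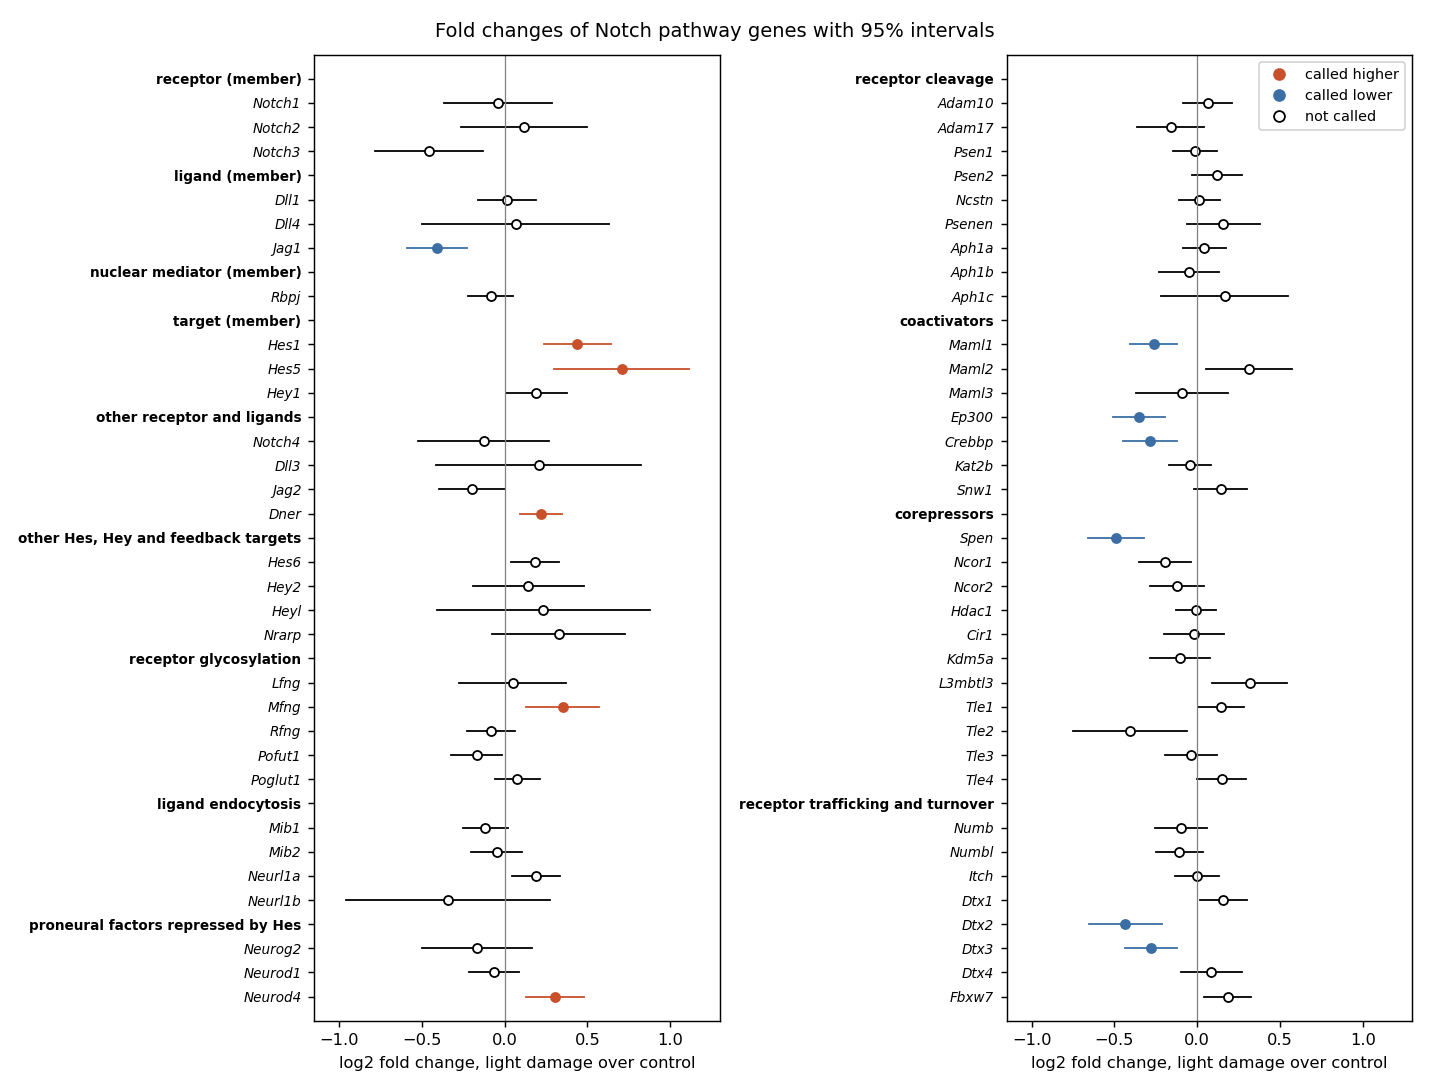
Log2 fold change of light damage over control (horizontal axis) with 95% intervals for the 10 genes and other tested pathway genes, grouped by role. Filled orange points are called higher, filled blue points called lower and open points not called; the falls of Spen, Ep300, Crebbp, Maml1, Dtx2 and Dtx3 stand in the right panel.

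Several of these calls lay near the threshold and were lost when certain single libraries were dropped, while the fold changes kept their sign and stayed near their size. Dner lost its call in 4 of 10 such fits, without light damage replicate 1 or 3 or control replicate 2 or 3 (adjusted p up to 0.0646), at 0.20 to 0.27 on the log2 scale over the 10 fits. Mfng lost it in 7, without light damage replicate 1, 2, 3 or 4 or control replicate 2, 4 or 5 (up to 0.089), at 0.30 to 0.40. Neurod4 lost it in 3, without light damage replicate 1, 2 or 3 (up to 0.0735), at 0.24 to 0.34. Maml1 lost it without light damage replicate 2 or 3 (up to 0.0611), at -0.29 to -0.23, and Crebbp without light damage replicate 1 or 2 or control replicate 2 or 5 (up to 0.0704), at -0.34 to -0.23. Dtx3 lost it without light damage replicate 1, 2 or 3 or control replicate 4 (up to 0.0683), at -0.33 to -0.21, all by edgeR. Spen, Ep300 and Dtx2 were called in all 10 such fits. Genes called lower over the whole table had longer transcripts, with a median of 4.34 kilobases against 2.60 kilobases for genes called higher and 3.17 kilobases for all tested genes. Spen, Crebbp and Ep300 have transcripts of 12.3, 10.8 and 9.57 kilobases. After lowess removal of GC and length trends within libraries, the log2 fold changes were -0.33 for Spen (adjusted p = 0.0012), -0.23 for Ep300 (adjusted p = 0.006) and -0.14 for Crebbp (adjusted p = 0.113, no longer called), all by edgeR. In the same fit Hes1 and Jag1 kept their calls at 0.39 and -0.37, and Hes5 had 0.61 with an adjusted p of 0.0593 in edgeR. Scaling by library totals instead of TMM gave 1147 higher and 912 lower genes over the whole table, and Hes1, Hes5 and Jag1 were called in the same directions, while Crebbp was not (adjusted p = 0.06 by edgeR).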

How the data were processed

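Gene counts, whole numbers, were deposited by the authors for 10 mouse retina libraries. From the submitters' processing notes, which name RSEM 1.3.1, Bowtie2, build GRCm39 and DESeq2 1.4.5 without their roles, it is not known whether the counts are rounded estimates. Groups and replicate numbers come from the sample titles. Symbols were matched for 19892 genes, and transcript lengths and GC content come from GENCODE M21 (GRCm38). Promoters are RefSeq's, build GRCm38.p6.

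With edgeR 4.0.16 (R 4.3.3), genes passing filterByExpr defaults were TMM-scaled and light damage was compared with control in a robust quasi-likelihood test. P-values of the 16852 genes were adjusted by Benjamini-Hochberg and called under 0.05. SE and 95% intervals were derived from the F statistic. Log2 CPM used a prior count of 2. Alternatives used DESeq2 1.42.0, limma 3.58.1, other scalings and filters, a replicate block and leaving out each library. Fits without both high-Xist libraries, with the lens score as covariate, and with lowess-removed GC and length trends (span 0.3) were chosen after seeing the data. The genes and lists were chosen with earlier results of these data known. Named pathway genes are those called and up to 2 with the lowest p per role, with Notch4 added for its role; the genes most like a member are the 3 with the highest correlation, for members of at least 10 CPM. Some genes that this rule selects are not reported here. On simulated counts with this comparison's 16852 genes and group sizes, the test found 88.1% of 1.5-fold, 98.5% of 2-fold and 98.5% of 4-fold changes. It made 12 false calls. These rates were not split by expression level, and recovery at the low levels of Hes5 and Dll4 was not tested. Chi-square per degree of freedom was at least 6.08 for every pair of libraries of a group, so no pair was the same library deposited 2 times. Whether libraries are independent animals is not settled by this. Figures used Python 3.11.15 and matplotlib 3.10.9.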

Additional observations from a re-analysis of the deposited data

Results flagged for a closer look

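Jag1 in light damage replicate 3, at 82.7 CPM, lay far below the other 4 light damage libraries, which held between 101.3 and 107.6 CPM. Its gap to the nearest of them was 0.748 of the range of the group, above Dixon's critical value of 0.71. This was 1 of 20 groups examined, 10 genes in 2 groups, and chance flags about 1 in 20. That library also had the highest Hes1 value and the highest Müller glia, astrocyte, endothelial, bipolar, amacrine and microglial scores. Its rod sum was the lowest of all libraries, at 61510 CPM. Without that library the Jag1 log2 fold change was -0.34.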

How the results depend on the processing

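Over the 10 fits that left out a library, between 1 and 2 of the 10 genes were called higher and 1 in each fit lower, and of the other pathway genes 0 to 5 higher and 3 to 7 lower; over all genes the counts lay between 399 and 1347 higher and 723 and 1644 lower. DESeq2 called 2 of the 10 lower (Jag1 and Notch3). Without both high-Xist libraries 0 of the 10 and 0 other pathway genes were higher and 1 other pathway gene lower, with 135 and 268 over all genes. With the lens score as covariate 0 of the 10 were called in either direction, 0 other pathway genes either way, and 1 and 7 over all genes. The lens score differed between the groups, so that fit cannot tell lens content and light damage apart. With GC and length trends removed 1 of the 10 and 6 other pathway genes were higher. Whether the replicate numbers pair the libraries was not settled. Deviations from the group means correlated at between 0.0522 and 0.316 over the 5 numbers. Some libraries, but not all, correlated best with the library of their own number. With a replicate block 2 of the 10 were lower (Jag1, and Notch3 with an edgeR adjusted p of 0.0229), 6 other pathway genes higher and 10 lower, and 1431 over all genes higher. Hes1, Hes5, Hey1, Jag1, Notch2, Notch3 and Rbpj kept the sign of their fold change under every alternative run. Notch1, Dll1 and Dll4, all near 0 and not called, changed sign. Without single libraries Notch1 lay between -0.155 and 0.018 (above 0 without light damage replicate 1 or control replicate 3 or 5), Dll1 between -0.019 and 0.0612 (below 0 without light damage replicate 3 or 4 or control replicate 1 or 2) and Dll4 between -0.071 and 0.224 (below 0 without light damage replicate 1 or control replicate 5). Notch1 was 0.032 with the lens covariate and 0.074 with the trends removed, Dll1 -0.0021 with the trends removed, and Dll4 -0.092 without both high-Xist libraries and -0.16 with the lens covariate. The cause of these changes was not tested. Depth limits Dll4 and Hes5 most, at 12 to 38 and 22 to 79 counts in a library.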
